A study of Mus musculus with 4 samples.

Results

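The MEK-ERK transcriptional output genes are a set of 10 genes whose transcripts are read in many cell types as a report of FGF-ERK signalling: the phosphatase genes Dusp4 and Dusp6, the pathway inhibitor genes Spry2, Spry4 and Spred1, the ETS factor genes Etv4 and Etv5, and the transcription factor genes Egr1, Fosl1 and Myc. Members were found by name, from every array probe whose transcript accession mapped to one of these symbols, and this matching uses no measured value. The set itself was chosen with earlier results of these data known. All 10 genes were found, on 16 probes, out of 21639 genes and transcripts tested. The 16 probes were well above background on all 4 arrays, so none passed the filter on dim probes through 1 group alone.

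The RNA came from 4 mouse embryonic stem cell (ESC) lines, each hybridised to 1 one-colour Agilent array with Cy3 as the dye. Of these lines, 2 were wild type at ECAT15-1 and ECAT15-2 (15-1+/+, 15-2+/+; WT), and 2 were 15-1CT/CT, 15-2-/- (KO), that is, without ECAT15-2 (Dppa2) and with a conditional targeted allele of ECAT15-1 (Dppa4) on both copies. Blastocysts of mother 1046 gave WT 1 and KO 1, and those of mother 875 gave WT 2 and KO 2. All lines were kept on gelatin in medium with LIF and 15% fetal calf serum for 3 days. The mice were a mixture of 129Sv, C57/BL6 and a Cre or FLPe transgenic strain of unknown background. Because each line is its own derivation, the spread within a group is that between lines, and the KO group differs from the WT group at both loci.

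In the ERK pathway a growth factor such as FGF4 activates a receptor tyrosine kinase, and the signal passes through Ras, Raf and MEK to the kinase ERK. Active ERK induces immediate early genes and ETS factors, and it also induces its own brakes, among them phosphatases that act on ERK and the Sprouty and Spred proteins that act upstream of it. In mouse ESCs this pathway is known for moving cells out of the naive state towards lineage commitment, while LIF sustains self-renewal.

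Promoter sequences were taken from the RefSeq table of build GRCm38.p6, which matched 4 of the 10 genes with 5 start sites. The 250 bases before the start site are shown for Spry2 and Etv5, both with higher signal in each KO line than in each WT line, and for Dusp6, where the groups overlapped. They are written in lower case from 5′ to 3′ on the gene's strand, with motif matches in capitals. The positions are chr14:105896820-105897069 (minus strand) for Spry2, chr16:22439571-22439820 (minus strand, the upstream one of 2 start sites) for Etv5 and chr10:99262981-99263230 (plus strand) for Dusp6.
Spry2: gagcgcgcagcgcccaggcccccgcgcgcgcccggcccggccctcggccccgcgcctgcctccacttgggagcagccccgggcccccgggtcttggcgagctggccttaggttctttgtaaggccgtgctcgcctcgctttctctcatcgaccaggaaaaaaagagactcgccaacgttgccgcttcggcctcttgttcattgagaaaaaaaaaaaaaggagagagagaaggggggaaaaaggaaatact
Etv5: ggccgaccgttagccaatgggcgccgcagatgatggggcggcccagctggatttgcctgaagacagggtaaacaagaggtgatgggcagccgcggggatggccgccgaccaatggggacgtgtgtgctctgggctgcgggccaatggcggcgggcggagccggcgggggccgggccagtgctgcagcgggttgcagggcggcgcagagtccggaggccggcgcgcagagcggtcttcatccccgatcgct
Dusp6: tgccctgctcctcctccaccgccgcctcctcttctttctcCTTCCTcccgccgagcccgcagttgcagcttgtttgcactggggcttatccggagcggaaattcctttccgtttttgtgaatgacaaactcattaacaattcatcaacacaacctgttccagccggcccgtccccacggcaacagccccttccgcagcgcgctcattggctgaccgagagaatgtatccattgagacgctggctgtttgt
The motifs searched on both strands were the PEA3-type ETS motif AGGAAG, the AP-1 motif TGANTCA, the EGR1 motif GCGNGGGCG and the CArG box of the serum response element. The only match in the 5 windows of the 4 genes was an ETS motif on the minus strand of Dusp6, printed in capitals as CTTCCT, whose first printed base lies 210 bases before the start site. Of 32851 windows of the same length in the table, 29.5% held the ETS motif, 6.75% the AP-1 motif, 4.7% the EGR1 motif and 1.47% the CArG box. A match is a description of letters and not of binding.

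The scanner placed 68.4% to 70.3% of 41174 gene probes well above background, with 0 saturated spots. Dppa2 was lower in the KO lines, at 7.05 and 7.12 log2 signal against 12.09 and 12.03, a 31.4-fold fall (limma adjusted p = 0.00885, n = 2 per group, and 0.0808 with the replicate block, that is, with the shared mother as a term). Dppa4 read 13.37 and 13.54 in WT and 13.95 and 14.07 in KO lines (limma adjusted p = 0.154). Over all genes, 399 (1.84%) passed an adjusted p of 0.05 in limma's model, 38 of them higher (0.176%) and 361 lower (1.67%) in the KO lines, and 0 (0.0%) passed with the block. That total was 740 without KO 1 and 0 when WT 1, WT 2 or KO 2 was left out. The median log2 difference over all genes was 0.10, and members are to be read against that shift.

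None of the 10 ERK output genes passed the test over all genes, and their differences ran in both directions. Etv4, Etv5, Spry2, Spry4 and Myc had higher signal in both KO lines than in either WT line, whereas Dusp4, Dusp6, Spred1, Egr1 and Fosl1 had overlapping groups. No member was lower in both KO lines than in both WT lines. The share with no overlap was 5 of 10 upwards, against 37.7% of all genes tested, and 0 of 10 downwards, against 24.5%. Under median scaling the same counts stood against 53.1% upwards and 17.1% downwards. With the mean of all probes of a gene, 4 members remained upwards, without Spry4. At an unadjusted p under 0.05 limma gave 3 of 10 members, Etv4, Etv5 and Myc, all higher, against 11.2% of all genes higher, 12.4% lower and 23.6% in either direction. The median difference of the 10 members was 0.26 on the log2 scale, with a range from -0.36 to 1.45, and 7 of 10 were positive, against 59.2% of all genes. The median was 0.011 without KO 1 and 0.34 without KO 2. With the replicate block, 4 of 10 members (Spry2, Etv4, Etv5 and Myc) had an unadjusted p under 0.05 in limma, against 23.2% of all genes, and again none passed the adjustment.

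**Figure D1:**
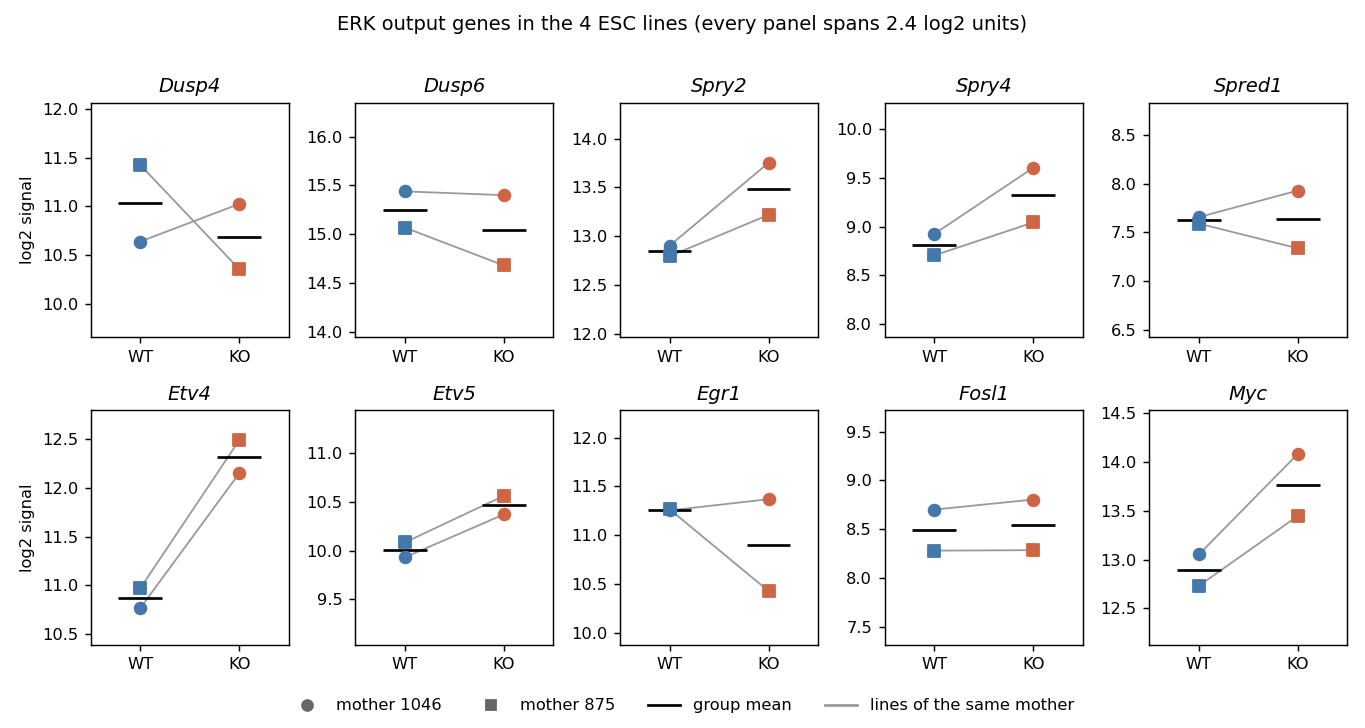
Log2 signal (vertical axis) of the 10 ERK output genes in the WT and KO lines, 1 panel per gene, with points for single lines, marker shape for the mother, black bars for group means and grey lines joining lines of the same mother. Every panel spans the same range of the log2 scale; Etv4 has the widest gap between the groups, and in Dusp4, Egr1 and Spred1 the grey lines run in opposite directions.

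Dusp4 and Dusp6 encode dual-specificity phosphatases that remove the activating phosphates from MAP kinases, Dusp4 in the nucleus and Dusp6 on ERK in the cytoplasm. Dusp4 had a log2 signal of 10.64 in WT 1, 11.43 in WT 2, 11.02 in KO 1 and 10.36 in KO 2. The highest and the lowest value thus both belonged to lines of mother 875, and the KO lines lay on either side of WT 1. The log2 difference of KO against WT was -0.34 (SE 0.40, n = 2 per group, limma adjusted p = 0.614). Without WT 2 it turned to 0.051. Dusp6 measured 15.44 in WT 1, 15.07 in WT 2, 15.40 in KO 1 and 14.68 in KO 2. Its KO 1 value lay between the WT lines, and only KO 2 was below both. Its difference of -0.21 (SE 0.32, n = 2 per group, limma adjusted p = 0.695) turned to 0.15 without KO 2. The 95% intervals ran from -1.48 to 0.80 for Dusp4 and from -1.13 to 0.71 for Dusp6. Both intervals span 0, and neither holds a 2-fold rise, whereas both hold a 2-fold fall.

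Spry2 and Spry4 encode Sprouty proteins, feedback inhibitors that dampen signalling from receptor tyrosine kinases towards Ras and Raf. Spry2, whose promoter is printed above, had a log2 signal of 12.90 in WT 1, 12.79 in WT 2, 13.75 in KO 1 and 13.22 in KO 2 on its brighter probe. The KO lines were above the WT lines, with KO 1 the highest. The difference was 0.64 (SE 0.23, 95% interval -0.029 to 1.30, n = 2 per group, limma adjusted p = 0.221), or 1.56-fold. The dimmer Spry2 probe read 7.85 in both WT lines, 9.35 in KO 1 and 9.13 in KO 2. On this probe the gap between the groups was wider, 1.39 on the log2 scale (SE 0.15, n = 2 per group), and in a limma fit over all 28688 probes it just passed the threshold (adjusted p = 0.0499). It was the 1 probe of 16 that passed, against 0.178% of all probes higher and 1.82% in either direction. It did not pass with the replicate block (limma adjusted p = 0.104), with a stricter filter that needs all 4 arrays (0.0685), with no filter on dim probes (0.0711), or with WT 1 (0.24), WT 2 (0.268), KO 1 (0.0643) or KO 2 (0.101) left out. The Spry2 probes thus had the same direction and differed in size.

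The log2 signal of Spry4 on its brighter probe was 8.92 in WT 1, 8.70 in WT 2, 9.60 in KO 1 and 9.04 in KO 2. Both KO lines were above both WT lines, by a small margin for KO 2. The difference was 0.51 (SE 0.25, 95% interval -0.21 to 1.23, n = 2 per group, limma adjusted p = 0.306). The dimmer Spry4 probe read 4.92 and 4.16 in WT and 5.34 and 4.28 in KO lines, with overlapping groups and a difference of 0.27 (SE 0.49). Spred1 encodes a Sprouty-related inhibitor that brings the Ras regulator neurofibromin to the membrane. It measured 7.66 in WT 1, 7.59 in WT 2, 7.93 in KO 1 and 7.34 in KO 2. The WT lines nearly coincided, and the KO lines lay on either side of them. The group difference was 0.009 (SE 0.25, n = 2 per group, limma adjusted p = 0.986, 95% interval -0.71 to 0.72), and its sign turned to -0.024 without WT 2, -0.29 without KO 1 and -0.036 with normexp background correction and the 75th percentile. The other Spred1 probe gave -0.007 (SE 0.22).

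Etv4 and Etv5 encode ETS transcription factors of the PEA3 group, which are induced downstream of FGF receptors. Etv4 had the largest difference among the members. Its log2 signal was 10.77 in WT 1, 10.97 in WT 2, 12.15 in KO 1 and 12.49 in KO 2. The gap between the groups exceeded 1 log2 unit, while lines of the same genotype differed by 0.20 and 0.34. Etv4 was 2.74-fold higher by the group means (log2 difference 1.45, SE 0.19, 95% interval 0.91 to 1.99, n = 2 per group) and just missed the threshold (limma adjusted p = 0.0682). It was the 1 member at least 2-fold higher within both mothers' pairs (1.38 and 1.52), as were 1.56% of all genes tested. It ranked 648th of 21639 by p. Etv4 passed with an intensity trend and robust prior (limma adjusted p = 0.0447) and with normexp background correction and the 75th percentile (0.0409). It did not pass under the other 12 of 14 alternatives. Among these were the replicate block (limma adjusted p = 0.102), the filter on all 4 arrays (0.0798), no filter on dim probes (0.0915) and normexp with quantile normalization (0.0508). Over 14 alternatives its adjusted p reached 0.277 at most.

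Etv5, whose promoter is printed above, had a log2 signal of 9.93 in WT 1, 10.08 in WT 2, 10.37 in KO 1 and 10.56 in KO 2. The KO lines were above the WT lines in both pairs, with the order of the lines the same as for Etv4. The difference was 0.46 (SE 0.15, 95% interval 0.032 to 0.89, n = 2 per group, limma adjusted p = 0.197). The other Etv5 probe read 9.11 and 9.42 in WT and 9.31 and 9.66 in KO lines, so there the groups overlapped, with a difference of 0.22 (SE 0.21).

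Egr1 is an immediate early zinc finger gene, Fosl1 encodes the AP-1 subunit FRA1, and Myc encodes a growth-promoting transcription factor that LIF signalling also sustains in ESCs. Egr1 had a log2 signal of 11.25 in WT 1, 11.27 in WT 2, 11.37 in KO 1 and 10.43 in KO 2. WT 1, WT 2 and KO 1 were thus close together and KO 2 stood below them. The difference was -0.36 (SE 0.37, n = 2 per group, limma adjusted p = 0.564). Without KO 2 it turned to 0.11. Fosl1 measured 8.70 in WT 1, 8.28 in WT 2, 8.80 in KO 1 and 8.29 in KO 2. Lines of the same mother differed by 0.10 and 0.005, and lines of the same genotype by 0.42 and 0.52. Its group difference was 0.054 (SE 0.27, n = 2 per group, limma adjusted p = 0.914), at -0.16 without WT 2 and -0.21 without KO 1.

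For Myc, 1 of 3 probes is printed on 10 spots of each array. On that probe the mean log2 signal was 13.05 in WT 1, 12.73 in WT 2, 14.08 in KO 1 and 13.45 in KO 2. The SD over the 10 spots of an array was 0.025 to 0.038, which is technical and gives no replicate of a line. Both KO lines were above both WT lines, and KO 1 was the highest. The difference was 0.87 (SE 0.29, 95% interval 0.050 to 1.70, n = 2 per group, limma adjusted p = 0.200), or 1.83-fold. The other Myc probes gave 0.87 (SE 0.29) and 0.90 (SE 0.25), so the 3 probes gave nearly the same difference. Counted by probe, 8 of 16 had both KO lines above both WT lines, against 37.3% of all probes, and 0 of 16 had both below, against 24.4%.

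**Figure D2:**
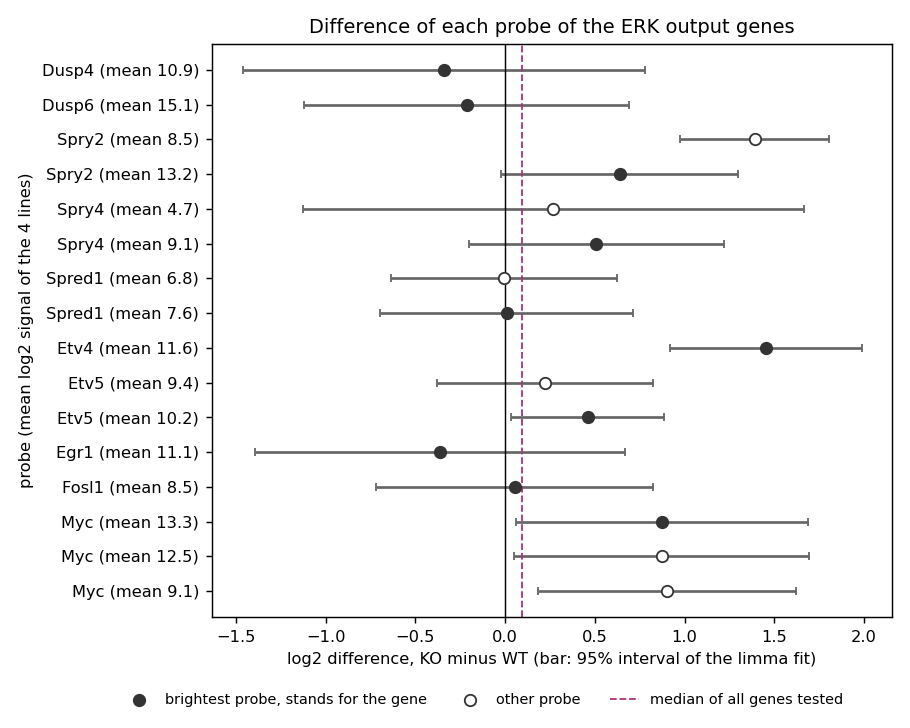
Log2 difference of KO minus WT (horizontal axis) for each of the 16 probes, with 95% intervals from the limma fit over all probes and the mean log2 signal of the 4 lines beside the gene name. The 3 Myc probes lie together near 0.9, the Spry2 probes lie at 0.64 and 1.39, and the intervals exclude 0 for Etv4, the 3 Myc probes, the dimmer Spry2 probe and the brighter Etv5 probe, and span 0 for the other 10 probes.

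Lines of the same mother gave a within-pair view of each member. In the pair of mother 1046, Dusp4 was 0.39 higher in the KO line, Egr1 0.12 higher and Spred1 0.27 higher. In the pair of mother 875, the corresponding differences were -1.07, -0.84 and -0.25. These were the 3 members whose genotype difference had opposite signs in the pairs, as did 24.0% of all genes. In the other 7 members the pairs had the same sign, positive for all but Dusp6 (-0.038 and -0.39). The median over the members was 0.41 for mother 1046 and 0.17 for mother 875, against medians of 0.10 and 0.089 over all genes. For 8 of 10 members the signed difference was lower, that is, less positive or more negative, in the pair of mother 875. The same held for 50.4% of all genes, and the exceptions among the members were Etv4 and Etv5. With 1 array per line and genotype, a difference between the pairs has no replicate check.

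**Figure D3:**
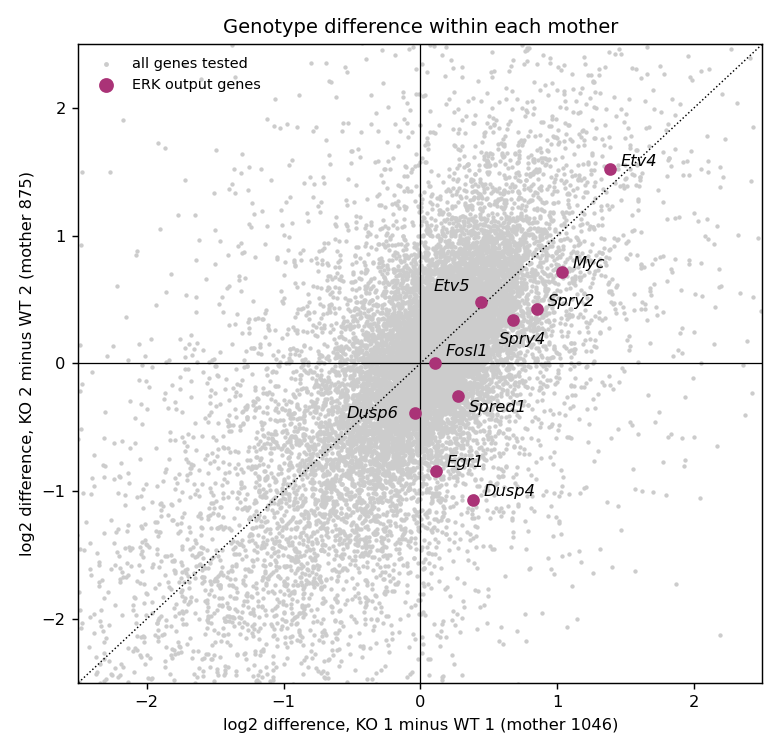
Log2 difference of KO 1 minus WT 1 (mother 1046, horizontal axis) against KO 2 minus WT 2 (mother 875, vertical axis) for the ERK output genes and for all genes tested, with the diagonal dotted; 1190 of the other genes fall outside the axes. Etv4 and Etv5 lie just above the diagonal and the other 8 members below it, with Dusp4, Egr1 and Spred1 in the lower right quadrant.

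The KO lines also differed from each other in the members. KO 2 was below KO 1 for 8 of 10 members, by 0.52 (Fosl1) to 0.94 (Egr1) on the log2 scale, and above it for Etv4 (by 0.34) and Etv5 (by 0.19). Over all genes tested, 47.0% were lower in KO 2 than in KO 1. KO 1 was the highest of the 4 lines for 6 of 10 members, against 22.6% of all genes, and KO 2 the lowest for 4 of 10, against 27.5%. A gap of at least 0.5, a size set after these values were seen, was found for 14.6% of all genes. The median of KO 2 minus KO 1 was -0.58 for the members and 0.025 for all genes. In the WT lines the median was -0.087 for the members and 0.012 for all genes, and WT 2 was below WT 1 for 6 of 10 members, against 47.9% of all genes. In both genotypes the line of mother 875 was lower for Dusp6, Spry2, Spry4, Spred1, Fosl1 and Myc, 6 of 10 against 26.2% of all genes, and higher for Etv4 and Etv5, 2 of 10 against 31.3%. The count of 8 of 10 and its 2 exceptions were the same under quantile normalization, median scaling, normexp correction and the deposited values, with medians from -0.56 to -0.51. All members were read on the same 4 arrays, so these counts describe 4 lines and are not tests.

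**Figure D4:**
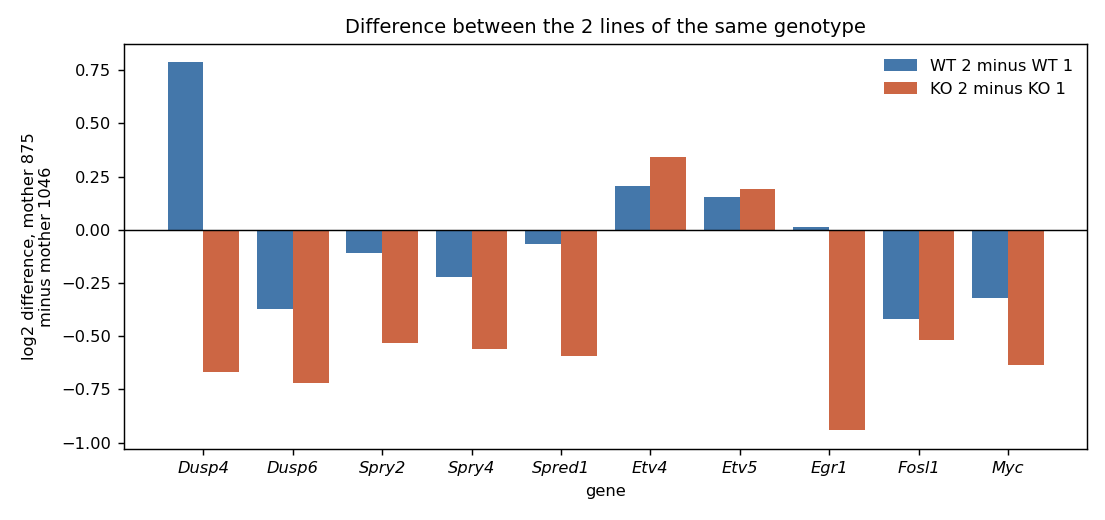
Log2 difference between the lines of the same genotype, mother 875 minus mother 1046 (vertical axis, from bars at 0), for each ERK output gene, in blue for WT 2 minus WT 1 and in orange for KO 2 minus KO 1. The KO bars are negative for 8 genes and positive for Etv4 and Etv5; Dusp4 has the largest WT bar, at 0.79, with the opposite sign to its KO bar.

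The rest of the pathway was read from 8 lists of components and targets, chosen with earlier results of these data known. Their counts beside the share of all genes are descriptions and not tests. Over all 21639 genes tested, 59.2% were positive and 8836 genes negative. Of 12 genes of FGF receptors and docking proteins none passed the test, 6 were positive and 6 negative, and the median difference was 0.086. The members with the smallest p were the receptor gene Fgfr1, at -1.02 (limma adjusted p = 0.135), Frs3, which encodes an FGF receptor substrate, at 0.53, and the docking protein gene Gab1 at 0.94. Of 14 genes of Ras, Raf, MEK and ERK none passed, with 7 positive and 7 negative and a median of 0.022. Rras2 had -0.52, Araf 0.33 and Braf -0.35, with limma adjusted p between 0.217 and 0.226. The median of this list changed sign between alternatives, from -0.12 to 0.20, as did that of the receptors, from -0.0026 to 0.27. Of 6 tested Ras GTPase-activating protein genes none passed, and Rasa3 had the smallest p (-0.79, limma adjusted p = 0.118), followed by Rasa1 (-0.40) and Rasal2 (0.20). Of 7 kinase genes acting beside or below ERK none passed, with Rps6ka4 at 0.74, Mknk1 at 0.61 and Rps6ka1 at 0.38.

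Other feedback and immediate early genes had mostly negative differences. Among the members, Dusp4 (-0.34, SE 0.40), Dusp6 (-0.21, SE 0.32) and Egr1 (-0.36, SE 0.37) were also negative by the group means. Each turned positive with a line left out: Dusp4 to 0.051 without WT 2, and Dusp6 to 0.15 and Egr1 to 0.11 without KO 2. Dusp4 and Egr1 also had opposite signs in the pairs. Spred1 (0.009) and Fosl1 (0.054) differed little. Spry2, Spry4, Etv4, Etv5 and Myc were positive. Of 17 further phosphatase, Sprouty and Spred feedback genes tested, 0 passed and 14 were negative, against 8836 of 21639 genes tested. The median of the 17 was -0.70. The ERBB inhibitor gene Errfi1 had a log2 signal of 13.70 and 13.73 in WT and 12.57 and 12.42 in KO lines, and its difference of -1.23 just missed the threshold (SE 0.13, n = 2 per group, limma adjusted p = 0.0521). Errfi1 passed with normexp correction, with the mean of all probes of a gene and with the intensity trend. Together with the phosphatase genes Dusp8 (-1.24), Dusp2 (-1.23) and Dusp10 (-1.30) it was at least 2-fold lower within both pairs, 4 of 17 against 6.93% of all genes. Spry1, a close relative of Spry2, had -0.70 (limma adjusted p = 0.262).

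Of 23 further immediate early and AP-1 genes tested, 1 fell, 0 rose and 22 did not pass. Over all genes, 1.67% passed as lower and 0.176% as higher. Negative differences were found for 18 of the 23, against 8836 of 21639 genes tested, and the list median was -0.55. The gene that fell was Atf3, a stress-induced transcription factor gene, from 10.73 and 10.63 in WT to 9.16 and 9.03 in KO lines (3.01-fold, log2 difference -1.59, SE 0.13, n = 2 per group, limma adjusted p = 0.0372). Atf3 did not pass with the replicate block (limma adjusted p = 0.0941), with genes above background on all 4 arrays, with no filter, or without any of the 4 lines in turn. At least 2-fold lower within both pairs were also Ier5 (-1.60), the AP-1 genes Fosl2 (-2.54) and Jun (-1.21) and the matricellular gene Ccn1 (-1.96), 5 of 23 with Atf3, against 6.93% of all genes. The AP-1 subunit genes Fosl2 and Fosl1 thus stood at -2.54 and 0.054. Egr2, a relative of Egr1, had -0.99 (limma adjusted p = 0.199). KO 2 was below KO 1 for 19 of these 23 genes, against 47.0% of all genes, with a median of -0.29.

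Of 17 other genes known to respond to ERK none passed, and 10 were negative, against 8836 of 21639 genes tested. The median of the 17 genes was -0.069, and it turned to 0.11 under median scaling. Of these, 5 of 17 were at least 2-fold lower within both pairs, against 6.93% of all genes: the circadian repressor gene Bhlhe40 (-1.25, limma adjusted p = 0.0548), the chromatin protein gene Hmga2 (-2.16), the urokinase gene Plau (-1.96), the intermediate filament gene Nes (-2.05) and the activin antagonist gene Fst (-1.55). Bhlhe40 passed with either form of normexp correction and with the intensity trend. Of 9 tested genes listed as held down by FGF-ERK in ESCs, 9 were positive, against 59.2% of all genes, and 0 passed, with a median of 1.37. The count was 8 of 9 under quantile normalization, normexp with quantile normalization, the deposited values and without KO 2. Whether ERK holds down each of the listed genes, Dnmt3l included, was not tested. Among these, 6 were at least 2-fold higher within both pairs, against 1.56% of all genes: the nuclear receptor genes Nr0b1 (1.93) and Esrrb (1.56), Dnmt3l (1.37), Tfcp2l1 (1.32), Klf4 (1.92) and Tbx3 (1.51), with limma adjusted p between 0.0645 and 0.104. Of the listed genes, Esrrb, Klf4 and Zfp42 are also among the ESC markers below, and Nes and Fst among the neural and primed epiblast markers. Klf2 is in both the immediate early list and that of genes held down by FGF-ERK.

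**Figure D5:**
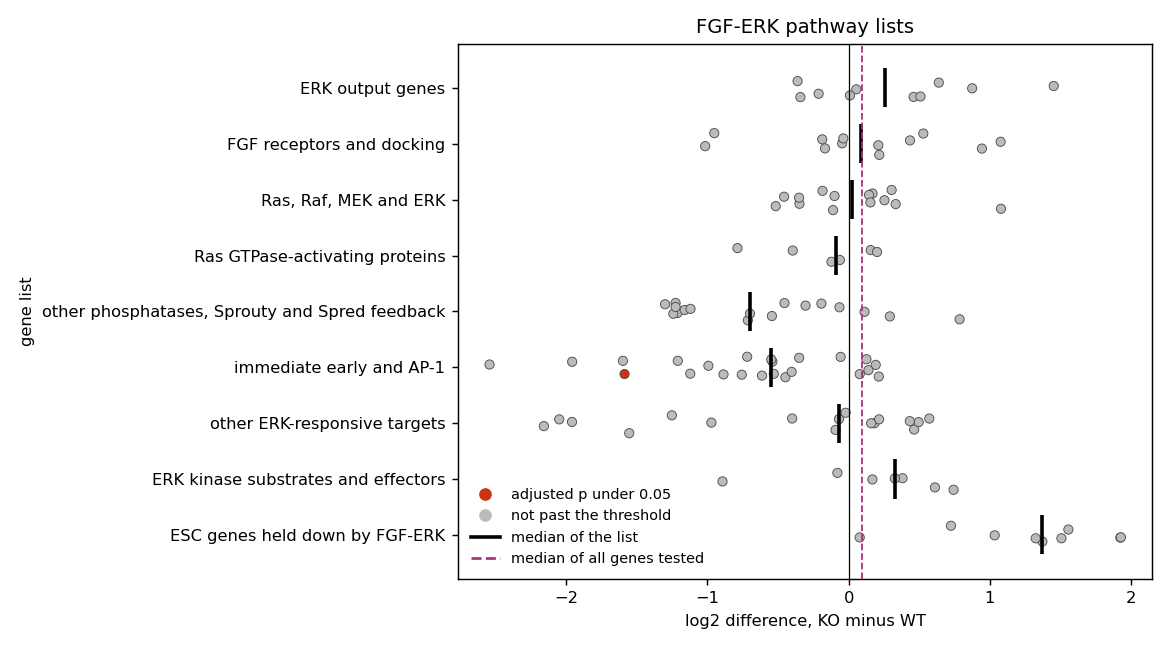
Log2 difference of KO minus WT (horizontal axis) of the tested genes of each pathway list and of the 10 ERK output genes (top row), with black bars for list medians and a dashed line for the median of all genes. Atf3 in the immediate early list is the only gene past the threshold. The medians are -0.70 for the further feedback genes, -0.55 for the immediate early genes and 1.37 for the genes listed as held down by FGF-ERK.

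Markers of ESCs and of other cell types were read beside these values. Over all 21639 genes tested, 59.2% were positive and 8836 genes negative, while 1.67% passed as lower and 0.176% as higher. Of 10 ESC markers, 8 were tested and positive in the KO lines, and 0 passed, with a summed signal of 465375 to 474823 in WT and 602960 to 706658 in KO lines. Positive ESC markers were 7 of 8 under quantile normalization, normexp with quantile normalization, the deposited values and without KO 2. All 8 primed epiblast markers were negative and 1 of them, Sox4, fell, with a summed signal of 105844 to 109587 in WT and 77247 to 96689 in KO lines. Of 8 mesoderm markers, 7 were negative and 1, Mesp2, fell, with sums of 3131 to 5047 in WT and 443 to 779 in KO lines. Of 7 trophoblast markers, 6 were negative and 1, Krt8, fell, just past the threshold, with sums of 288278 to 376705 against 60653 to 84997. Such sums mostly follow the brightest probes, Krt8 and Krt18 here and Dppa5a among the ESC markers. Hand1 is counted in both the trophoblast and the mesoderm list. Of 11 tested fibroblast markers, 9 were negative and 2, Mmp2 and Fbn1, fell, with sums of 11587 to 24674 against 11190 to 13752, which overlapped. Of 10 primitive endoderm markers, 6 were positive and 4 negative, with a median of 0.86, and Dab2 fell while Lama1 rose. Sox7 (1.44), Sox17 (1.42), Pdgfra (1.64), Gata4 (0.53) and Lama1 (1.68) were higher in both KO lines than in both WT lines. That was 5 of 10, against 37.7% of all genes. Dab2 (-1.75), Col4a1 (-2.18), Sparc (-0.70) and Foxa2 (-0.96) were lower in both KO lines than in both WT lines. That was 4 of 10, against 24.5% of all genes. The sums of this list were lower in KO lines, at 28520 to 30106 in WT against 16865 to 18047 in KO lines, with Sparc a bright probe. Of 6 tested neural markers 0 passed, 4 were positive and 2 negative, and the median was 0.22. Their sums, 9265 to 15413 in WT against 2700 to 4624 in KO lines, went the other way, with the bright Nes probe at -2.05. All of these marker calls were lost with the replicate block, with the filter on all 4 arrays, and without WT 1, WT 2 or KO 2. Those of Sox4, Dab2, Lama1 and Krt8 were also lost with no filter and without KO 1, and that of Krt8 under quantile normalization, median scaling and the deposited values. No tested marker was below background in both KO lines. At least 2-fold lower within both pairs were 6 of 7 trophoblast, 5 of 8 mesoderm and 4 of 8 primed epiblast markers. The same held for 3 of 11 fibroblast, 2 of 10 primitive endoderm, 1 of 6 neural and 0 of 8 ESC markers, against 6.93% of all genes. Such falls were thus not particular to the feedback and immediate early lists. The part of these cell types in the differences of the ERK output genes was not tested, and in such bulk RNA fewer cells of a type and less RNA per cell cannot be told apart.

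Etv4 was both the member with the smallest p and that with the largest difference, and its profile over the 4 lines was compared with those of 14372 other genes with a symbol. By the root mean square difference of profiles centred on their own mean, the nearest were Bdh2 (0.060 log2 units), Tmem179 (0.071) and Tmem63c (0.076). These have differences of 1.42, 1.44 and 1.40 between KO and WT lines, and 4 lines give no more than a description of likeness.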

How the data were processed

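Signals of 4 ESC lines were read from Agilent arrays, 1 per line, grouped by title. Per the file headers, the authors used Feature Extraction 10.7.3.1, whose processed intensity has background and spatial trend removed and no scaling across arrays. The deposited log2 table, used as an alternative, followed log2 of that intensity (r at least 0.999902) and its columns had equal quantiles (median 6.55 in each), so it was taken as quantile-normalized; per the labels, the software was GeneSpring GX11. The array annotation is of build mm9, per the file headers, so no gene coordinates are given beside those of the promoter table (GRCm38.p6).

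The main values were log2 processed signal minus its array's 75th percentile over gene spots, plus the mean of these percentiles. Control spots and flagged spots were left out (233 probes), spots of a probe were averaged, and probes were kept where well above background on both arrays of a group. Of 41174 probes, 26690 matched 1 symbol, 0 several and 14484 none. The brightest kept probe stood for a gene, and a second fit took all 28688 kept probes. Limma 3.58.1 in R 4.3.3 compared 2 KO with 2 WT lines, Benjamini-Hochberg adjusted over all genes at 0.05. A model with the replicate block was fitted beside it, since lines with the same number come from 1 mother per the labels. Across genes, WT 2 minus WT 1 correlated with KO 2 minus KO 1 at 0.19. The median signal took the place of the mean signal planned for the normexp alternatives (offset 50); the mean is not used here. All arrays lay on 1 slide and in 1 scan.

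A test on simulated arrays (KO against WT, 21639 genes, few of them changed) recovered 0% of genes changed by 1 log2 unit, 4.55% at 2 and 68.9% at 4. The number of arrays limits the precision. The members and lists were chosen with earlier results of these data known. Named were all members, Dppa2, Dppa4, pathway genes past the threshold or at least 2-fold the same way in both pairs (otherwise the 3 smallest p), markers by smallest p, and the 3 profiles nearest to the leading member. Spry1, Egr2 and some primitive endoderm markers (Sox7, Sox17, Pdgfra, Gata4, Sparc, Foxa2), outside this rule, were named after their values were seen. No per-sample column was left without a sample.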

Additional observations from a re-analysis of the deposited data

Results flagged for a closer look

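The genotype difference of 3 members had opposite signs in the pairs of the mothers. The pair of mother 875 minus that of mother 1046 came to -1.45 for Dusp4, -0.955 for Egr1 and -0.53 for Spred1 on the log2 scale. This difference was not tested, since each pair holds 1 WT and 1 KO line. Over all genes, 24.0% had opposite signs in the pairs.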

How the results depend on the processing

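The count of 0 called members was the same under 12 of 14 alternatives, and it was 1 (Etv4) with normexp and the 75th percentile and 1 with the intensity trend and robust prior. With the replicate block the count stayed at 0 while the count over all genes went from 399 to 0. The count over all genes was also 0 with genes above background on all 4 arrays, 525 with normexp and the 75th percentile, and 0 to 740 with a line left out. The member median of 0.26 was 0.44 under median scaling, which moved the median of all genes from 0.10 to 0.28, and 0.011 to 0.34 with a line left out. Spred1 turned to -0.036 with normexp and the 75th percentile. With a line left out, the differences ran from -0.74 to 0.051 for Dusp4, -0.57 to 0.15 for Dusp6, -0.29 to 0.31 for Spred1, -0.83 to 0.11 for Egr1 and -0.21 to 0.31 for Fosl1. Spry2, Spry4, Etv4, Etv5 and Myc stayed positive under all 14 alternatives. The probe-level alternatives for Spry2 were added after its values were seen; 6 of 13 kept the call. On simulated arrays, 2 lines per group recovered 0% of 2-fold changes. Fewer genes were changed there than passed in these data, which makes the adjustment stricter, so that share does not carry over to them. With 2 lines per group, a member that did not pass is still not shown to be unchanged.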
